A study of Oryza sativa with 6 samples.

Results

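Aux/IAA repressors and auxin response factors (ARFs) were followed in RP2068-18-3-5 (RP), an *indica* rice that resists the Asian rice gall midge, at the site where maggots of this insect fed. Members were the probe sets of the Affymetrix Rice Genome Array that map to 1 gene whose symbol or synonym is IAA or ARF with a number. This gave 43 genes with 54 probe sets, of 17905 named genes and 57381 probe sets in all: 26 IAA genes with 34 probe sets and 17 ARF genes with 20 probe sets. The annotation holds 8 more genes of these names for which no probe set was matched, namely IAA11, IAA29, ARF5, ARF6, ARF8, ARF19, ARF21 and ARF25. Members were taken by name and not by signal, though with earlier results of these data known.

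Infested tissue (RP-I) came from 3 trays of 15-day-old RP plants on which 25 female and 10 male midges of biotype 1 (GMB1) had been released, and un-infested tissue (RP-UI) from 3 trays without insects that were handled in the same way. RP carries the recessive resistance gene gm3 and answers GMB1 with a hypersensitive response, which is death of host tissue around the feeding site. All trays went into a humid chamber 48 h after release, and 1 cm of stem tissue was cut at the feeding site or at the matching place in RP-UI plants at 24, 48 and 72 h after infestation (hai). Material of the 3 time points was joined before hybridization, each tray is 1 biological replicate, and each array therefore gives 1 log2 signal per probe set that averages over the time points and over all cell types in the piece of stem. Both groups are of 1 variety, so nothing here separates the response of a resistant plant from that of any plant fed on by a maggot.

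Auxin is perceived by F-box receptors of the TIR1/AFB family, which in the presence of the hormone bind Aux/IAA proteins and have them degraded. Aux/IAA proteins otherwise sit on ARFs, the DNA-binding factors of the response, and bring in TOPLESS-type co-repressors, so auxin frees the ARFs. Many Aux/IAA genes are themselves switched on by ARFs, which gives the pathway a feedback loop, and ARFs fall into glutamine-rich activators and several clades regarded as repressors, of which one is cleaved through the microRNA miR160 and another, the ETTIN clade, through trans-acting siRNAs made from TAS3 transcripts. In the stem base auxin acts on cell division, elongation and the setting out of leaves and vascular strands.

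Gene names are those of the annotation, in which several rice names are used for more than 1 gene. IAA4 also carries the name IAA20, IAA5 the name IAA8, IAA13 the name IAA1, ARF1 the name ARF16, ARF4 the name ARF2, ARF12 the name ARF8, ARF18 the name ARF10 and ARF23 the name ARF1. Each gene is called here by the number that keeps the family in order along the chromosomes. Of the 54 probe sets, 51 passed a filter on low mean signal (31 IAA and 20 ARF). The other 3 were the only probe set of IAA16 (between 3.31 and 3.36 in RP-I and between 3.14 and 3.25 in RP-UI) and 1 of several for IAA8 and for IAA23. A signal depends on the probes as well as on the transcript, so signals of different probe sets are not set against each other.

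RP-I was compared with RP-UI by the moderated test of limma, with p-values adjusted over the 51532 probe sets that passed the filter and an adjusted p under 0.05 counted as a call. The groups gave 290 calls (0.563%), 121 higher and 169 lower in RP-I. Deviations from the group means correlated between arrays of equal replicate number (0.521, 0.308 and 0.624 for numbers 1, 2 and 3). Arrays of unlike number among 1 and 2 reached 0.295 and 0.244, close to the value of number 2. The labels do not say that trays of equal number belong together, so a pairing is not shown. Blocking on the number gave 4379 calls (8.5%), and the blocked value is printed wherever it changes a call. A call made only in the blocked fit thus rests on an assumed pairing. Array RP-I 3 was closest to RP-UI 3 (r = 0.968), while RP-I 1 and RP-I 2 were closest to each other (r = 0.990). A fit without both arrays numbered 3, added after the values had been seen, is therefore given for the main results. The median log2 signal lay between 5.45 and 5.49 in RP-I and between 5.44 and 5.46 in RP-UI. The authors' normalization sets the arrays to a common distribution, so these medians are no check on total transcript. The 27 probe sets of controls added at hybridization had a median log2 signal of 10.18, 10.52 and 10.52 in RP-I 1, 2 and 3, against 10.10, 10.34 and 9.86 in RP-UI 1, 2 and 3, and the 39 of poly-A controls 7.18, 7.38 and 7.88 in RP-I, against 7.33, 7.15 and 7.18 in RP-UI. Within each replicate number the hybridization controls were thus higher in RP-I. The 5′ probe sets of the poly-A controls lay below their 3′ probe sets by a mean log2 difference of -2.70, -2.92 and -1.21 in RP-I, against -2.51, -2.55 and -1.31 in RP-UI, so the arrays numbered 3 stood apart from the others in both groups. The part of these controls' shifts in the results was not tested.

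Marker genes of several cell types differed in signal between the groups. All 8 probe sets of the dividing-cell markers were lower in RP-I with no overlap between the groups, beside 9.73% of all probe sets. Their mean log2 signal was 9.00, 8.30 and 7.48 in RP-I 1, 2 and 3, against 10.13, 10.07 and 10.04 in RP-UI 1, 2 and 3. PCNA, the sliding clamp of DNA replication, fell by 2.83 on the log2 scale (adjusted p = 0.0284). The 7 probe sets of 5 shoot meristem homeobox genes all had a higher mean in RP-I. Of these, 4 were higher with no overlap, a pair of OSH1 among them, beside 9.12% of all probe sets. Their mean log2 signal lay between 7.28 and 7.39 in RP-I and between 5.94 and 6.67 in RP-UI. OSH71 of this class rose (log2 fold change 1.64, adjusted p = 0.0476). Green leaf markers, with 14 probe sets of 5 genes, had 6 probe sets higher and 8 lower, of which 1 and 4 did not overlap between the groups. Those 4 belonged to CAB2R and to 1 FBPASE gene, while every RBCS probe set had a higher mean in RP-I. Their mean log2 signal was 8.15, 8.22 and 7.52 in RP-I 1, 2 and 3, against 8.23, 8.63 and 8.61 in RP-UI 1, 2 and 3. Markers of water-conducting and fibre cells were CESA4, CESA7, CESA9 and laccases named by number. Of their probe sets tested 2 were higher and 10 lower, of which 2 and 7 did not overlap. Their mean log2 signal was 7.35, 7.41 and 6.82 in RP-I, against 7.47, 7.31 and 7.71 in RP-UI, so number 2 was higher in RP-I. The 2 higher were LAC7 (log2 fold change 3.07, adjusted p = 0.230, or 0.0150 with the block) and LAC24 (1.55, adjusted p = 0.289, or 0.109 with the block). In such whole pieces of stem, fewer cells of a type and less RNA per cell cannot be told apart. The part of these shifts in the results below was not tested.

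Among the Aux/IAA repressors, IAA9 rose in RP-I and no member fell by the main test. Of the 31 IAA probe sets tested, 1 was called higher and 0 lower, beside 0.235% of all probe sets called higher and 0.328% called lower. With the replicate block 5 were called higher (IAA9, IAA18, IAA20, IAA6 and IAA1) and 1 lower (IAA14), beside 4.06% and 4.44% of all probe sets. By an unadjusted p of 0.05 or below there were 5 higher and 2 lower, beside 6.58% and 7.65% of all. With a 2-fold change asked for besides, which is the study's threshold, 3 were higher and 1 lower, beside 2.66% and 2.9% of all. Without both arrays numbered 3 the adjusted test called 3 higher and 0 lower, beside 2.77% and 2.02% of all. The mean was higher in RP-I for 19 probe sets and lower for 12 (51.4% and 48.6% over all probe sets), with a median log2 fold change of 0.16 beside 0.0082 over all probe sets tested. The fold changes ran from -1.73 to 2.36, and their median size was 0.27 beside 0.18 over all probe sets.

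**Figure D1:**
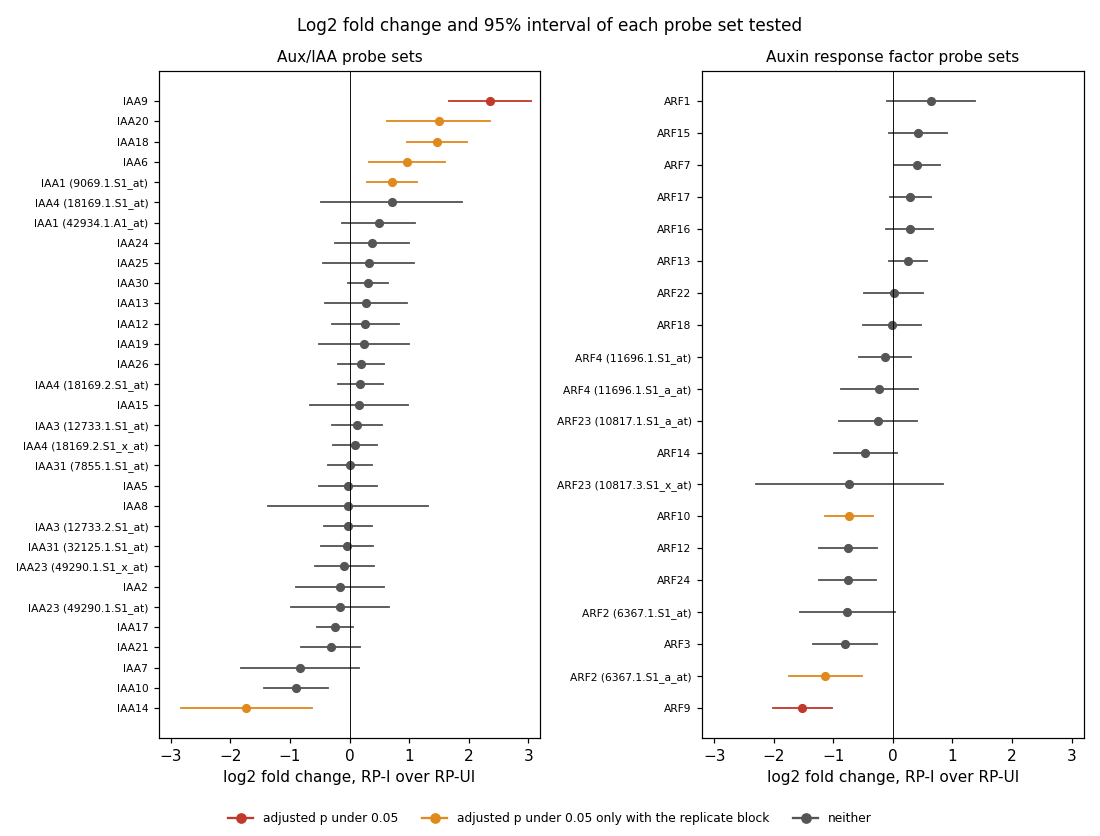
Log2 fold change of RP-I over RP-UI (point) with its 95% interval from limma (line) for the 31 Aux/IAA and the 20 auxin response factor probe sets tested, each family in order of its fold change. Red points passed an adjusted p of 0.05 and orange ones passed only with the replicate number as a block; IAA9 stands furthest to the right and ARF9 furthest to the left of its family.

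The log2 signal of IAA9 (gene LOC4331061) was 9.33, 10.01 and 9.93 in RP-I 1, 2 and 3, against 7.10, 7.19 and 7.89 in RP-UI 1, 2 and 3. The lowest RP-I array thus lay more than 1 log2 unit above the highest RP-UI array. The log2 fold change was 2.36 (standard error, SE, 0.28, 95% interval 1.68 to 3.05), a 5.14-fold higher signal, with an adjusted p of 0.0475 by limma and 0.0150 with the replicate block. Within the numbers 1, 2 and 3 the difference was 2.23, 2.82 and 2.04. The direction held when any 1 array was left out (log2 fold change 2.22 to 2.61), but the call did not, since the adjusted p was then 0.0511 to 0.229. Without both arrays numbered 3 the fold change was 2.52 (adjusted p = 0.0165).

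IAA18 (gene LOC4339365) had the next lowest p of the family. Its log2 signal was 9.37, 9.96 and 9.71 in RP-I, against 7.98, 8.17 and 8.47 in RP-UI. The groups did not overlap, and the log2 fold change was 1.47 (SE 0.21, adjusted p = 0.0502 by limma). It therefore missed the threshold narrowly, and passed it with the replicate block (adjusted p = 0.0170) and without both arrays numbered 3 (1.59, adjusted p = 0.0304).

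IAA20 (gene LOC4340245) had log2 signals of 5.61, 5.43 and 6.75 in RP-I, against 4.64, 4.20 and 4.47 in RP-UI. Array RP-I 3 was the highest and stood more than 1 log2 unit above the other infested arrays. The log2 fold change was 1.49 (SE 0.36, adjusted p = 0.123, or 0.0398 with the block), and 1.09 without RP-I 3 (adjusted p = 0.0719).

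IAA6 (gene LOC4326541), which has been linked to drought tolerance and tiller outgrowth in rice, had log2 signals of 9.29, 9.76 and 9.50 in RP-I, against 8.49, 9.04 and 8.12 in RP-UI. All RP-I arrays were above all RP-UI arrays, the nearest being RP-I 1 and RP-UI 2. Its log2 fold change was 0.97 (SE 0.26, adjusted p = 0.156, or 0.0373 with the block).

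IAA1 has a pair of probe sets that differed in size but not in sign. The brighter had log2 signals of 10.19, 10.08 and 10.56 in RP-I, against 9.66, 9.40 and 9.62 in RP-UI, and a log2 fold change of 0.72 (SE 0.18, adjusted p = 0.125, or 0.0438 with the block). The dimmer had 5.88, 5.78 and 5.14 in RP-I, against 4.93, 5.43 and 4.96 in RP-UI, and there the groups overlapped (log2 fold change 0.49, adjusted p = 0.483, or 0.204 with the block).

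IAA14 (gene LOC4334431) was the member with the largest decrease in mean. Its log2 signal was 7.21, 6.31 and 7.61 in RP-I, against 8.43, 8.31 and 9.58 in RP-UI, with no overlap. Both arrays numbered 3 were the highest of their groups, so the differences within the numbers 1, 2 and 3 (-1.22, -2.01 and -1.97) were steadier than the signals. The log2 fold change was -1.73 (SE 0.46, adjusted p = 0.147 by limma), and the adjusted p was 0.0180 with the block.

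**Figure D2:**
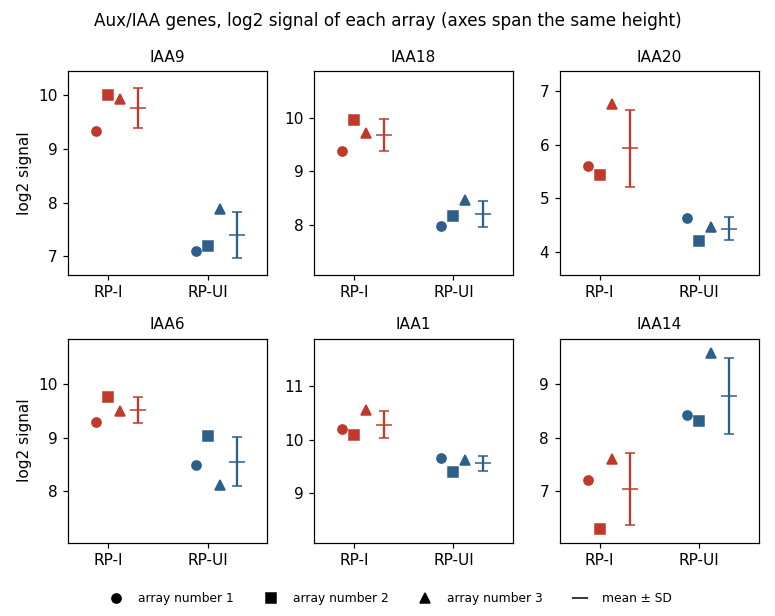
Log2 signal (vertical axis) of 6 Aux/IAA probe sets on each array of RP-I (left, red) and RP-UI (right, blue), with circles, squares and triangles for replicate numbers 1, 2 and 3 and the mean ± SD beside them; IAA1 is shown by its brighter probe set. In 5 panels all RP-I points lie above all RP-UI points, and in that of IAA14 all lie below.

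Over the family, the groups were separated for 9 of 31 IAA probe sets (6 higher and 3 lower in RP-I, that is 29.0%), beside 18.9% of all probe sets. The genes from here to the end of the paragraph were singled out after their values had been seen. IAA10, known as a rice Aux/IAA protein that is bound by a rice dwarf virus protein, was separated and had log2 signals of 10.56, 10.03 and 10.78 in RP-I, against 11.50, 11.35 and 11.20 in RP-UI (log2 fold change -0.89, adjusted p = 0.131, or 0.0627 with the block). IAA17, read by a probe set that may bind several transcripts, was separated by a small amount, with 13.32, 13.16 and 13.13 in RP-I and 13.46, 13.43 and 13.44 in RP-UI (log2 fold change -0.24, adjusted p = 0.489). IAA30 was separated the other way, with 12.53, 12.37 and 12.52 in RP-I and 12.17, 12.03 and 12.30 in RP-UI (0.30, adjusted p = 0.409). IAA31, its neighbour on the chromosome, had log2 fold changes of 0.015 and -0.046 in its probe sets. The second was the dimmer, with a mean log2 signal of 4.27 in RP-I and 4.32 in RP-UI, against 10.20 and 10.19 for the first. IAA7 had 6.95, 6.63 and 5.37 in RP-I and 7.38, 7.15 and 6.94 in RP-UI, with RP-I 3 lowest by more than 1 log2 unit and a slight overlap (-0.84, adjusted p = 0.456).

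Other members differed little or unevenly. IAA5 and the IAA8 probe set that passed the filter were, with IAA31, the genes nearest to no change, with log2 fold changes of -0.024 (95% interval -0.51 to 0.47) and -0.027 (95% interval -1.37 to 1.31). The wide interval of IAA8 comes with arrays numbered 3 that were the lowest of both groups, 6.45 in RP-I 3 beside 7.93 and 7.72 in RP-I 1 and 2, and 6.40 in RP-UI 3 beside 7.70 and 8.09 in RP-UI 1 and 2. IAA3, whose probe sets had opposite signs, had log2 fold changes of 0.12 (95% interval -0.30 to 0.54) and -0.030 (95% interval -0.43 to 0.37). The first was the dimmer, with a mean log2 signal of 4.73 in RP-I and 4.61 in RP-UI, against 12.99 and 13.01 for the other. The 3 probe sets of IAA4, which has been tied to tiller angle in rice, had values between 0.098 and 0.71, none with an adjusted p below 0.658. IAA13, of which a stabilised form blocks lateral root initiation in rice, had 0.27 (adjusted p = 0.811), and IAA23, known for the root quiescent centre, had -0.16 and -0.089 in the probe sets that were tested. The remaining 8 genes (IAA2, IAA12, IAA15, IAA19, IAA21, IAA24, IAA25 and IAA26) had overlapping groups and log2 fold changes between -0.32 for IAA21 and 0.38 for IAA24, with no adjusted p below 0.619. The differences ran upward in all 3 replicate numbers for 11 of the 31 probe sets and downward for 5, beside 22.3% and 22% of all probe sets.

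ARF9 fell in RP-I, and it was the only auxin response factor called by the main test. Of the 20 ARF probe sets tested, 0 were called higher and 1 lower, beside 0.235% and 0.328% of all probe sets. With the replicate block 0 were called higher and 3 lower (ARF9, ARF2 and ARF10), beside 4.06% and 4.44% of all probe sets. By an unadjusted p of 0.05 or below, 1 was higher and 6 lower, beside 6.58% and 7.65% of all. By the study's threshold 0 were higher and 2 lower, beside 2.66% and 2.9% of all. Without both arrays numbered 3 the adjusted test called 0 higher and 2 lower, beside 2.77% and 2.02% of all. The mean was lower in RP-I for 13 probe sets and higher for 7, whereas over all probe sets tested 48.6% were lower. The median log2 fold change was -0.24, and the values ran from -1.52 to 0.64. The groups were separated for 9 of 20 probe sets (3 higher and 6 lower, 45.0%), beside 18.9% of all probe sets (9.12% higher and 9.73% lower). Within the replicate numbers 1, 2 and 3 the median over the ARF probe sets was -0.26, -0.43 and 0.025, so the lower median was not present in the arrays numbered 3. Without those arrays it was -0.38. The differences ran downward in all 3 numbers for 10 of the 20 probe sets and upward for 6, beside 22% and 22.3% of all probe sets.

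The log2 signal of ARF9 (gene LOC4335934), which belongs to the repressor-type factors, was 10.00, 9.49 and 9.50 in RP-I, against 11.04, 11.45 and 11.06 in RP-UI. Each RP-I array was at least 1 log2 unit below each RP-UI array. The log2 fold change was -1.52 (SE 0.21, 95% interval -2.02 to -1.03), a 2.87-fold lower signal, with an adjusted p of 0.0477 by limma and 0.0216 with the replicate block. Without any 1 array the fold change stayed between -1.69 and -1.39, and the adjusted p was between 0.0626 and 0.229, so the call was lost in each case. It was also lost with each array centred on its median (adjusted p = 0.0510). Without both arrays numbered 3 the fold change was -1.50 (adjusted p = 0.0368).

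The ETTIN clade, which in plants is held in check by trans-acting siRNAs and acts in organ polarity, held 4 measured genes with 5 probe sets. Of these, 4 had a lower and 1 a higher mean in RP-I. ARF2 was read by a pair of probe sets on the same side of 0. The probe set with the ending _a_at had log2 signals of 8.48, 8.24 and 7.86 in RP-I, against 9.69, 9.38 and 8.93 in RP-UI, with a log2 fold change of -1.14 (SE 0.25, adjusted p = 0.103, or 0.0170 with the block). The differences within numbers 1, 2 and 3 were nearly equal, at -1.20, -1.14 and -1.07. The other ARF2 probe set had 8.60, 8.82 and 7.69 in RP-I, against 9.32, 9.32 and 8.77 in RP-UI, where RP-I 2 lay above RP-UI 3 (-0.77, adjusted p = 0.375, or 0.0510 with the block).

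The remaining genes of the ETTIN clade are described after their values were seen. ARF3 had log2 signals of 9.06, 8.88 and 8.43 in RP-I, against 9.88, 9.35 and 9.57 in RP-UI, without overlap (-0.81, adjusted p = 0.162, or 0.0515 with the block). ARF14 had 8.53, 8.43 and 8.06 in RP-I, against 9.12, 8.83 and 8.47 in RP-UI (-0.47, adjusted p = 0.427). ARF15 stood on the other side of 0, with 11.76, 11.97 and 11.54 in RP-I, against 11.59, 11.41 and 11.03 in RP-UI (0.42, adjusted p = 0.446). ARF14 and ARF15 each had the same sign in all 3 replicate numbers although their groups overlapped.

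**Figure D3:**
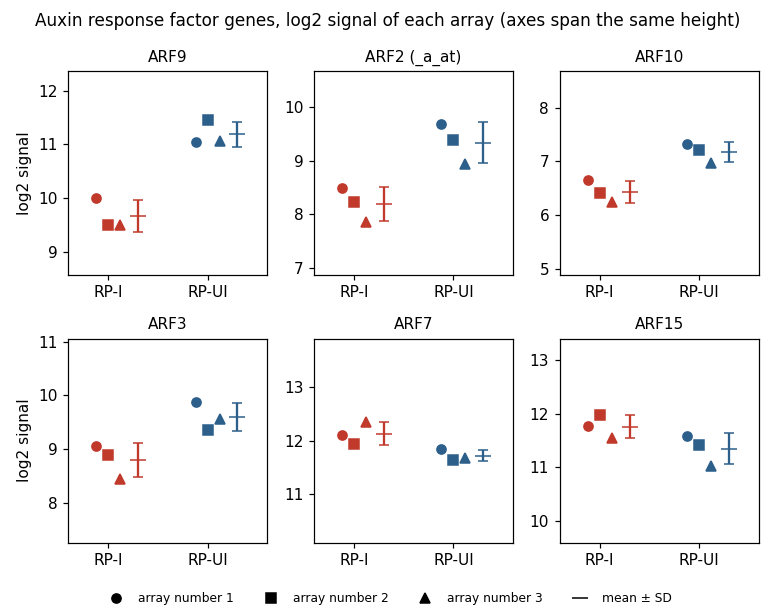
Log2 signal (vertical axis) of 6 auxin response factor probe sets on each array of RP-I (left, red) and RP-UI (right, blue), with circles, squares and triangles for replicate numbers 1, 2 and 3 and the mean ± SD beside them. RP-I lies wholly below RP-UI for ARF9, ARF2, ARF10 and ARF3 and wholly above it for ARF7, and the groups overlap for ARF15.

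In the clade that holds the miR160 targets, 4 genes were measured with 1 probe set each, of which 2 had a higher mean in RP-I and 2 a lower one. ARF10 (gene LOC4336419) had log2 signals of 6.65, 6.41 and 6.24 in RP-I, against 7.33, 7.21 and 6.98 in RP-UI. The groups did not overlap, and the differences within the numbers were -0.68, -0.80 and -0.73. The log2 fold change of -0.74 (SE 0.17) had an adjusted p of 0.111, or 0.0305 with the block. ARF18 and ARF22 were among the ARF genes nearest to no change, at -0.016 (95% interval -0.50 to 0.47) and 0.014 (95% interval -0.48 to 0.51). ARF13 had log2 signals of 5.34, 5.30 and 5.26 in RP-I, against 4.94, 4.98 and 5.20 in RP-UI (0.26, adjusted p = 0.495). miR160 itself was not measured here.

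The activator type, glutamine-rich factors that switch auxin genes on, was represented by 3 of the annotated genes, and 5 of the 8 genes without a matched probe set belong to it (ARF5, ARF6, ARF19, ARF21 and ARF25). ARF12, which takes part in root elongation and in iron and phosphate balance in rice, had log2 signals of 11.78, 11.13 and 11.54 in RP-I, against 12.34, 12.28 and 12.08 in RP-UI (-0.75, SE 0.20, adjusted p = 0.151, or 0.0650 with the block). ARF16, known from the phosphate response, had 9.55, 9.55 and 9.17 in RP-I, against 9.27, 9.03 and 9.11 in RP-UI (0.28, adjusted p = 0.550). ARF17 had 11.85, 11.72 and 12.07 in RP-I, against 11.55, 11.57 and 11.64 in RP-UI (0.30, adjusted p = 0.444). ARF12 and ARF17 were separated in opposite directions, and none of the 3 genes passed the test with or without the block.

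The repressor type other than these clades held 6 genes with 8 probe sets, of which 6 probe sets had a lower and 2 a higher mean in RP-I. Besides ARF9, ARF24 was separated, with log2 signals of 11.06, 10.54 and 11.14 in RP-I, against 11.84, 11.65 and 11.55 in RP-UI (-0.76, adjusted p = 0.146, or 0.0628 with the block). ARF23, which works with ARF24 on a formin gene of the actin skeleton in rice, did not have a steady value. The probe set with the ending _x_at, which may bind several transcripts, had 8.30, 7.59 and 10.17 in RP-I, against 9.17, 9.16 and 9.92 in RP-UI (-0.73, adjusted p = 0.764), and the other had 11.27, 11.20 and 12.09 in RP-I, against 11.57, 11.77 and 11.97 in RP-UI (-0.25, adjusted p = 0.818). In both probe sets RP-I 1 and RP-I 2 were below every RP-UI array and RP-I 3 was above every one.

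ARF4, a gene of grain size in rice, was also near to no change, with log2 fold changes of -0.23 (95% interval -0.88 to 0.43) and -0.14 (95% interval -0.57 to 0.30). ARF7 had log2 signals of 12.09, 11.93 and 12.36 in RP-I, against 11.84, 11.64 and 11.68 in RP-UI. It was separated upward, with a log2 fold change of 0.41 and an unadjusted p of 0.0409 by limma (adjusted p = 0.318, or 0.176 with the block). ARF1 had the largest increase in mean of the ARF genes, with 10.00, 9.53 and 9.07 in RP-I, against 9.28, 8.46 and 8.95 in RP-UI (0.64, adjusted p = 0.443). Its groups overlapped, and the difference was 0.71 and 1.07 in numbers 1 and 2 but 0.13 in number 3. The values of ARF1, ARF7, ARF12, ARF13, ARF16, ARF17, ARF23 and ARF24 were picked out after they had been seen.

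**Figure D4:**
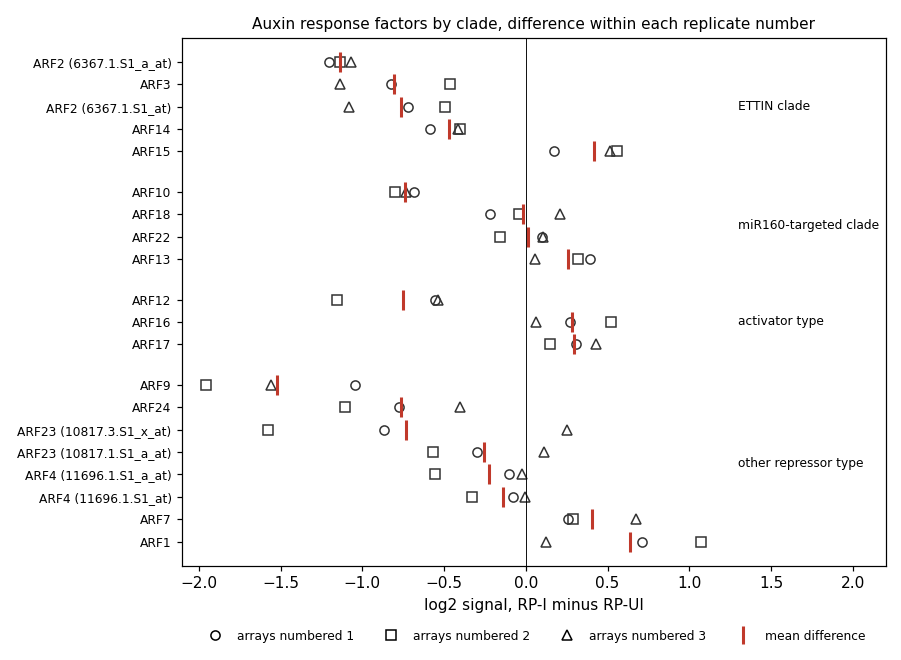
Difference in log2 signal between RP-I and RP-UI (horizontal axis) for each of the 20 auxin response factor probe sets, grouped by clade, with circles, squares and triangles for replicate numbers 1, 2 and 3 and a red bar for the mean. In the ETTIN clade 4 of 5 probe sets, the pair of ARF2 among them, lie left of 0 in all 3 numbers, beside 22% of all probe sets. Both ARF23 probe sets change sign in number 3.

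The rest of the auxin pathway was read from a list of 30 genes with 36 probe sets, built from symbols alone. The TIR1/AFB receptor genes carry no symbol in the annotation and were not analysed here. None of the 36 probe sets was called in either direction by limma's main test, beside 0.235% higher and 0.328% lower over all probe sets. By an unadjusted p of 0.05 or below 4 were higher and 5 lower, beside 6.58% and 7.65% of all, and with the replicate block 5 were higher and 4 lower, beside 4.06% and 4.44% of all. The mean was higher in RP-I for 19 and lower for 17, with a median log2 fold change of 0.040 and a range from -1.40 to 1.42.

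Genes listed by name under conjugation of auxin, its release or its breakdown (GH3, ILL and DAO) made up 20 of the 36 probe sets of the list. They held 5 of the 9 called with the block, so their share of the calls was that of the list. Not all of them act on auxin, as GH3-5 below shows. GH3-2 encodes an enzyme that joins auxin to amino acids and so removes the active hormone. Its log2 signal was 7.68, 7.33 and 6.96 in RP-I, against 6.03, 5.81 and 5.86 in RP-UI. RP-I lay wholly above RP-UI, with a log2 fold change of 1.42 (SE 0.21, adjusted p = 0.0532, or 0.0172 with the block). GH3-6 of the same family had 6.62, 6.60 and 7.50 in RP-I, against 5.81, 5.89 and 6.14 in RP-UI (0.96, adjusted p = 0.170, or 0.0374 with the block). Of 11 GH3 probe sets, 3 of them of GH3-7, 8 had a higher mean in RP-I, beside 51.4% of all probe sets. The lowest value was that of GH3-5 (-0.71, adjusted p = 0.342), which is also named JAR1 and conjugates jasmonate rather than auxin. ILL6, of the family of hydrolases that cleave auxin conjugates, had 8.97, 9.34 and 9.38 in RP-I, against 9.68, 10.72 and 10.22 in RP-UI (-0.97, adjusted p = 0.181, or 0.0370 with the block). ILL2 had -0.72 (adjusted p = 0.0954, or 0.0488 with the block), and a probe set of ILL5 had 0.85 (adjusted p = 0.113, or 0.0244 with the block). The other ILL5 probe set had 0.30 with overlapping groups (adjusted p = 0.906, or 0.304 with the block). Members of this hydrolase family thus lay on both sides of 0. ILL2, ILL5 and GH3-5 were chosen after their values had been seen.

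RUB1 and RUB2, annotated as NEDD8-type modifiers that activate the ubiquitin ligase of the auxin receptor by attachment to its cullin, lay on opposite sides of 0. The annotation also names them UBQ4 and UBQ5, and what else their transcripts may encode was not examined. RUB2 had log2 signals of 10.10, 10.05 and 9.33 in RP-I, against 11.11, 11.31 and 11.25 in RP-UI (-1.40, SE 0.23, adjusted p = 0.0648, or 0.0261 with the block). RUB1 had 9.65, 9.56 and 10.02 in RP-I, against 9.08, 9.03 and 9.32 in RP-UI (0.60, adjusted p = 0.180, or 0.0474 with the block). Both genes were separated between the groups. These modifiers also serve cullins that have no part in auxin signalling.

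The TOPLESS-related co-repressors TPR2 and TPR3 had log2 fold changes between -0.14 and -0.037, with overlapping groups. Of the synthesis genes, FIB, an aminotransferase of the first step from tryptophan, had -0.58 (adjusted p = 0.547, or 0.0537 with the block) and YUCCA1, a flavin monooxygenase of the next step, had 0.050 and -0.25 in its probe sets. In transport, PID, a kinase that directs PIN carriers to a side of the cell, had log2 signals of 6.74, 6.55 and 7.39 in RP-I, against 7.69, 7.54 and 7.84 in RP-UI (-0.80, adjusted p = 0.193, or 0.0471 with the block). The 6 probe sets of PIN auxin carriers overlapped between the groups and had values between -0.51 and 0.90. PIN4 was the highest of them, with 5.21, 4.92 and 6.64 in RP-I, against 4.13, 4.46 and 5.47 in RP-UI (adjusted p = 0.576, or 0.0484 with the block). The early response gene SAUR39 had 5.00, 4.70 and 8.44 in RP-I, against 3.58, 4.49 and 6.36 in RP-UI, where the arrays numbered 3 were far above the others in both groups (1.24, adjusted p = 0.781).

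**Figure D5:**
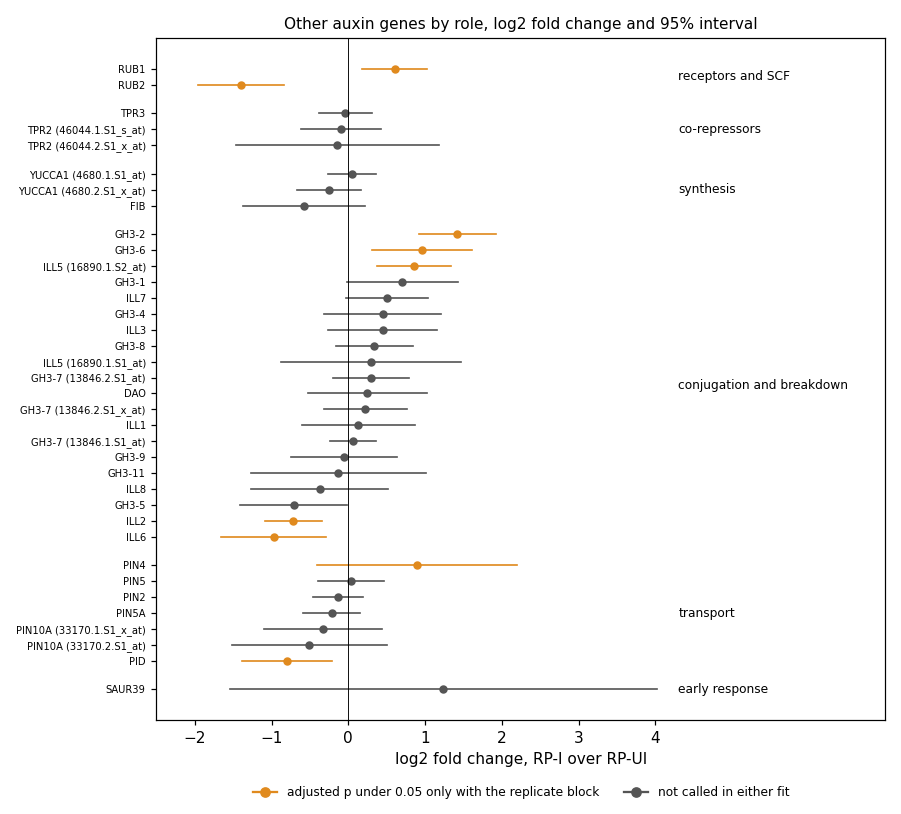
Log2 fold change of RP-I over RP-UI (point) with its 95% interval from limma (line) for the 36 probe sets of other auxin genes, grouped by role. No probe set passed an adjusted p of 0.05 in the fit without a block, and the 9 orange ones passed only with the replicate number as a block, among them GH3-2 at 1.42 and RUB2 at -1.40.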

How the data were processed

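The authors deposited 1 table of log2 signals for 57381 probe sets on 6 arrays, made by RMA, which corrects the background, brings the arrays to the same quantiles and summarises the probes of a set. Their methods give GeneSpring as the software, while the processing notes of the submitters list Affymetrix Expression Console besides RMA, without a version. The labels describe pooled tissue of the time points, the methods pooled RNA.

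No further normalization was applied. After removal of 123 control probe sets, those with a mean over the 6 arrays at or above the 10th percentile were kept (51532). RP-I was compared with RP-UI by limma 3.58.1 in R 4.3.3 (lmFit, eBayes, no block), with Benjamini-Hochberg adjustment over all probe sets kept. The code was tested on simulated data. Standard errors and intervals are those of the moderated fit, and the 3 arrays a group limit the precision. "Separated" means that all RP-I arrays lay above, or all below, all RP-UI arrays.

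Gene names come from the probe annotation (22436 probe sets name 1 gene, 95 several and 34850 none) and a RefSeq gene table of rice. Clades of ARF genes were assigned from the gene names. Left out of the pathway list were 7 genes whose symbol stands for another protein. No protein sequences were used, so family membership rests on the names. Probe sets with the endings _s_at and _x_at may bind several transcripts.

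The members and lists were chosen with earlier results of these data known. Named were members with an adjusted p under 0.05, with an unadjusted p of 0.05 or under and a 2-fold change, or called with the replicate block, besides the 3 nearest to no change and those with probe sets of opposite sign. Of the pathway list, up to 3 genes a role with the largest changes at an unadjusted p of 0.05 or under were named. The labels make each tray a replicate and number the replicates in each group, but do not say that trays of equal number belong together. The block is given because arrays of equal number deviated alike from their groups (correlation above 0.1 in all 3 pairs), and a difference shared by the arrays numbered 3 alone would give this too. Arrays of unlike number among 1 and 2 also passed 0.1 (0.295 and 0.244), so this criterion does not show that trays of equal number belong together. Alternatives were the block, other filters, other scalings, leaving out each array, 1 value per gene, and leaving out _x_at and _s_at probe sets.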

Additional observations from a re-analysis of the deposited data

How the results depend on the processing

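The replicate block ended none of the calls among the 27 named probe sets and added others. It raised the Aux/IAA calls to 5 higher and 1 lower, the ARF calls lower in RP-I to 3, the pathway calls to 5 higher and 4 lower (conjugation and breakdown 3 and 2, receptors and SCF 1 and 1, transport 1 and 1), and all calls to 2092 higher and 2287 lower. Without both arrays numbered 3, chosen after seeing the data, there were 3 Aux/IAA calls higher, 2 ARF calls lower, 2 pathway calls higher (both conjugation and breakdown) and 2 lower (1 receptors and SCF, 1 transport), 1426 and 1040 in all, and a median ARF log2 fold change of -0.38. The study's threshold (unadjusted p of 0.05 or under and 2-fold) gave 3 Aux/IAA higher and 1 lower, 2 ARF lower, 1 pathway probe set higher (conjugation and breakdown) and 1 lower (receptors and SCF), and 1373 and 1492 in all. A further quantile normalization gave 2 Aux/IAA calls higher, 1 pathway call higher (conjugation and breakdown) and 193 higher over all. Median centring gave 0 ARF calls lower, and 45 higher and 81 lower over all. The percentile filter on each array gave 2 Aux/IAA calls higher. With 1 value per gene there were 2 Aux/IAA calls higher, and 1 pathway call higher (conjugation and breakdown) and 1 lower (receptors and SCF). The cause of these shifts was not tested.

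Leaving out each array in turn gave 0 Aux/IAA and 0 ARF calls, 0 to 1 pathway calls higher (conjugation and breakdown, 0 to 1, the call being made without RP-I 3), 0 to 172 calls higher and 0 to 108 lower over all. Without RP-I 3 there were 280 calls, 131 of them among the 290, and without any other array there were 0. With 1 array left out, 13 to 19 member probe sets had an unadjusted p of 0.05 or under by limma, against 14 with all arrays. Over all probe sets tested there were 5015 to 7979, against 7330 with all arrays. The median log2 fold change was 0.056 to 0.18 for Aux/IAA (lowest without RP-UI 3) and -0.38 to -0.14 for ARF probe sets. Over the 27 named probe sets and 12 settings, 263 of 324 results kept direction and side of the threshold, 23 passed it newly, 13 lost it and 25 changed sign. All sign changes were in probe sets with a log2 fold change between -0.14 and 0.12 with all arrays. ARF18 was 0.015 after quantile normalization, and ARF22 was -0.0070 after median centring and -0.032 without the arrays numbered 3. The brighter probe set of IAA3 was 0.017 without those arrays, and that of IAA31 was -0.0061 and -0.067 under the same settings as ARF22. Leaving out 1 array, the range was -0.26 to 0.011 for the ARF4 probe set of smaller change, -0.14 to 0.12 for ARF18, -0.15 to 0.14 for ARF22, -0.0030 to 0.22 and -0.15 to 0.077 for IAA3, -0.22 to 0.10 for IAA5, -0.52 to 0.43 for IAA8 and -0.069 to 0.12 and -0.15 to 0.10 for IAA31.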
